A study of Mus musculus with 7 samples.

Results

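Gad1 and Gad2 are the mouse genes for the enzymes that make the inhibitory transmitter GABA, and both were chosen by name among the 297 genes counted in 384076 cells. Gad1 encodes GAD67, a largely soluble enzyme that supplies most basal GABA. Gad2 encodes GAD65, which is attached to synaptic vesicles and adds GABA during intense activity. GABAergic neurons commonly contain both enzymes, in proportions that differ between cell types.

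The data were Xenium in situ counts, in which transcripts are decoded by imaging in a tissue section and assigned to segmented cells, from 10 µm fresh-frozen hemisections of wild-type (WT) mouse brain. The sections lay at an anterior position (bregma -0.58 mm, 2 sections, replicates 1 and 2), an intermediate position (bregma -0.7 to -0.82 mm, 2 sections, replicates 1 and 2) and a posterior one, at bregma -0.94 mm, with 3 sections numbered replicates 1, 3 and 4. The labels give no age, sex or animal for a section, so every p-value below measures the spread between sections, which may be technical. Posterior replicates 3 and 4 lay on a second slide. The sections held 50169 to 60720 cells each, with a median of 278 to 390 transcripts per cell, and 16 cells shared a bare barcode with another cell. All control probes together gave 0.379 to 0.870 counts per cell. Gad1 had 2309295 transcripts, rank 9 of the panel, and Gad2 had 1298126, rank 25.

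The GABA pathway list of 14 genes had 2 measured members, Gad1 and Gad2 themselves, so transporters, GABA receptors and GABA breakdown were not analysed here. Cells were gated on 5 markers of inhibitory neurons. Pvalb encodes the calcium buffer parvalbumin, and Sst, Vip, Penk and Nts encode the neuropeptide precursors of somatostatin, vasoactive intestinal peptide, enkephalin and neurotensin. A cell entered a class when it had at least 10 transcripts in all and at least 5 of exactly 1 marker. This gave 2827 cells of the Vip class, 41915 of the Pvalb class, 1865 of the Sst class, 37272 of the Penk class and 3558 of the Nts class, 87437 in all, while 6196 cells passed for more than 1 marker and were described apart. A class is a gate and not a cell type: 77.6% of Vip class cells, 48.8% of Pvalb class cells, 61.3% of Sst class cells, 16.4% of Penk class cells and 44.2% of Nts class cells also had at least 5 transcripts of a glutamate transporter gene, Slc17a6 or Slc17a7, as the mean over 7 sections.

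Both genes lie on chromosome 2, and their start regions are shown because the pair moved together across cells. The windows run from 250 bases before to 50 after the annotated start in RefSeq (build GRCm38.p6, forward strand), chr2:70561879-70562178 for Gad1 and chr2:22622077-22622376 for Gad2. Capitals mark the GC box, GGGCGG on either strand.
Gad1: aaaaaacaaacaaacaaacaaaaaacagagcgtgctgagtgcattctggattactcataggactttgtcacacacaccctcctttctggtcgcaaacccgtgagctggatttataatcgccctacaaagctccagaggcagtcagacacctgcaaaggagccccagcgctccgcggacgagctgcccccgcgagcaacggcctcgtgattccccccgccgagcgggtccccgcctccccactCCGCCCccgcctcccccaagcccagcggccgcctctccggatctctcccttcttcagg
Gad2: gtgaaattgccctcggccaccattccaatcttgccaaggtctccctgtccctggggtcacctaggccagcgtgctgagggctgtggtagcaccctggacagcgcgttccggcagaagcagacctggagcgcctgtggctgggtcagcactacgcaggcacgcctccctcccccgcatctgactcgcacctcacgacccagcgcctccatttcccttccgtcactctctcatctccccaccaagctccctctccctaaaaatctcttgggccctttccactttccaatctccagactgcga
The Gad1 window was 60.0% G or C with 21 CpG dinucleotides, and the Gad2 window was 61.3% G or C with 14, against medians of 52.7% and 7 over 32851 windows. The Gad1 window held the GC box, which 35.7% of all windows hold on either strand, and the TATAAA motif on the reverse strand, where the printed strand reads tttata, which 13.6% hold on either strand. The Gad2 window held neither set of letters, and TAATTA, found in 5.29% of windows, was in neither. The motifs do not overlap each other in these windows, and a match of letters describes the sequence only.

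The ratio of Gad1 to Gad2 differed between the classes in an order that most sections shared. It was highest in the Vip class, next in the Pvalb class, lower in the Sst and Penk classes and lowest in the Nts class. The ratio is given as log2 of summed Gad1 over summed Gad2 transcripts of a class in a section. Its absolute size depends on how well each gene's probes work, which the files do not give, so only differences between cells are read here.

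In the Vip class the log2 ratio was 1.42 at the lowest, 1.51 at the median and 1.66 at the highest of 7 sections. In the Pvalb class it was 0.98 at the lowest, 1.05 at the median and 1.33 at the highest. In the Sst class it was 0.71 at the lowest, 0.78 at the median and 0.81 at the highest. The Vip class lay above the other 4 classes in every section, and the lowest Pvalb section lay above the highest Sst section. In the Penk class the log2 ratio was 0.62 at the lowest, 0.77 at the median and 0.83 at the highest of 7 sections, a range that overlapped that of the Sst class. In the Nts class it was -0.018 at the lowest, 0.27 at the median and 0.33 at the highest, below every section of every other class.

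**Figure D1:**
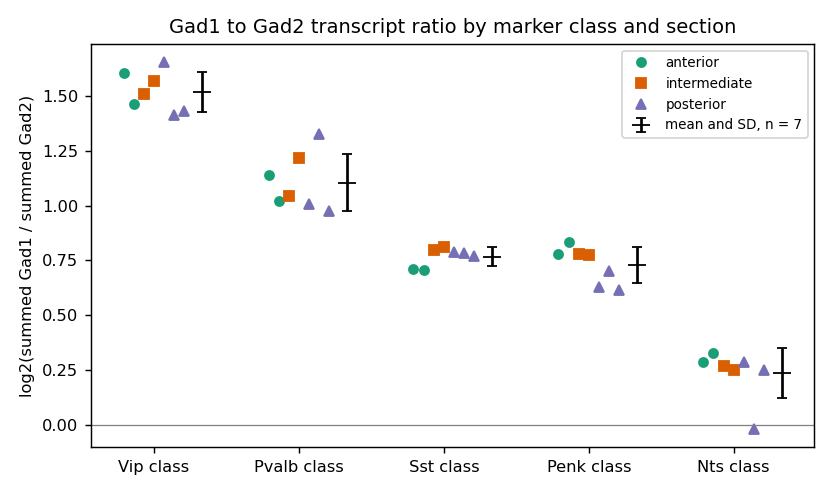
Log2 of summed Gad1 over summed Gad2 transcripts (vertical axis) for 5 marker classes (horizontal axis), with 1 point per section, coloured by position, and the mean with its SD over 7 sections in black. The class means fall in the order Vip 1.52, Pvalb 1.11, Sst 0.77, Penk 0.73 and Nts 0.24, and 1 posterior Nts point lies near 0.

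Class differences were tested with an exact two-sided sign-flip permutation test over 7 sections, for which the smallest possible p is 0.0156, and adjusted over 10 pairs by Benjamini-Hochberg. The test counts the 7 sections as independent, although sections with the same replicate number deviated together, as described below. If those numbers mark animals, the p-values here and in the other comparisons across sections may be too small. The log2 ratio of the Vip class exceeded that of the Nts class by 1.29 ± 0.11 (SD, n = 7), a 2.44-fold larger Gad1 to Gad2 ratio, in 7 of 7 sections (exact permutation p = 0.0156, adjusted 0.0174). The Vip class exceeded the Pvalb class by 0.42 ± 0.17, the Sst class by 0.75 ± 0.10 and the Penk class by 0.79 ± 0.13, each in 7 of 7 sections with the same p. The Pvalb class exceeded the Sst class by 0.34 ± 0.13, the Penk class by 0.38 ± 0.14 and the Nts class by 0.87 ± 0.23, again each in 7 of 7 sections. The Sst class exceeded the Nts class by 0.53 ± 0.14, and the Penk class exceeded it by 0.49 ± 0.12, in 7 of 7 sections each. Leaving out each section in turn, posterior replicate 3 included, kept all 9 calls (exact permutation, adjusted p = 0.0347 each). The Sst and Penk classes were not told apart: the Sst class minus the Penk class was 0.04 ± 0.11, ranging from -0.13 to 0.16 and positive in 5 of 7 sections (exact permutation p = 0.391). The difference between the Pvalb and Penk classes fell to 0.13 among cells with fewer than 5 transcripts of each glutamate transporter gene, with an adjusted p of 0.0521 in the exact permutation test. In those cells Pvalb minus Sst was 0.15 and kept its call (exact permutation, adjusted p = 0.0195), while Sst minus Nts was 0.31 with cells of more than 1 marker included.

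The level of each gene followed another order than the ratio. Sst class cells had the most transcripts of both genes per cell, and Vip class cells the fewest of Gad2. Sst class cells averaged 27.3 ± 2.74 Gad1 and 16.0 ± 1.42 Gad2 transcripts per cell (SD, n = 7). Pvalb class cells averaged 16.4 ± 0.743 Gad1 and 7.66 ± 0.692 Gad2 transcripts per cell. Vip class cells averaged 12.4 ± 1.95 Gad1 and 4.36 ± 0.872 Gad2 transcripts per cell. Penk class cells averaged 11.5 ± 0.566 Gad1 and 6.91 ± 0.256 Gad2 transcripts per cell. Nts class cells averaged 11.7 ± 2.18 Gad1 and 10.0 ± 2.31 Gad2 transcripts per cell, with the widest spread between sections for Gad2.

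**Figure D2:**
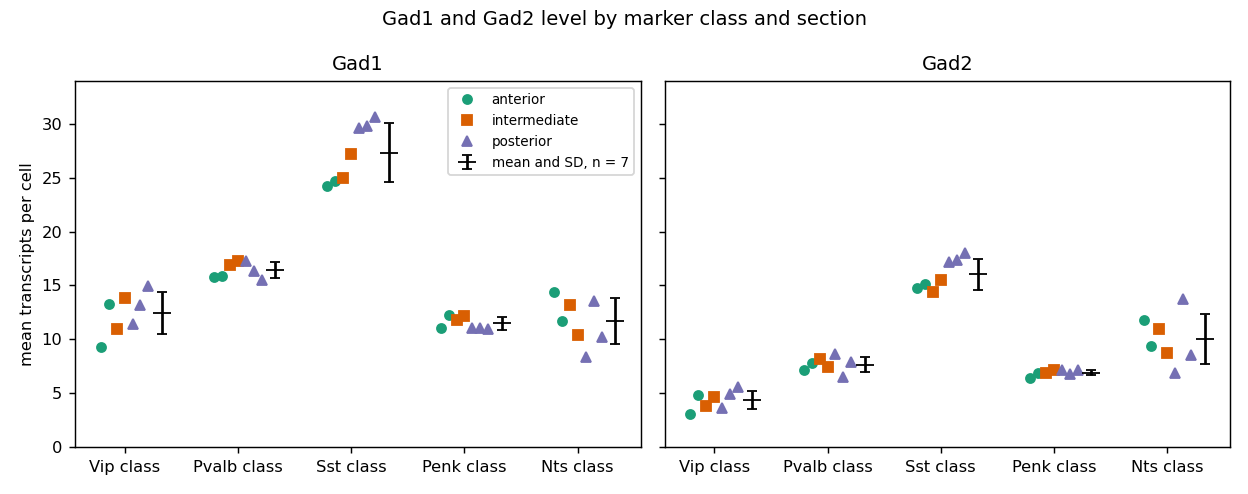
Mean Gad1 (left) and Gad2 (right) transcripts per cell (vertical axis) in 5 marker classes (horizontal axis), with 1 point per section, coloured by position, and the mean with its SD over 7 sections in black. Sst class sections lie above all others for both genes, with class means of 27.3 and 16.0.

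Levels were compared with edgeR's quasi-likelihood test on the summed counts of each class and section, with section as a block, over 294 genes. Most genes differ between such classes, and the calls for the members read against that: 78.6% of genes were called for Vip minus Sst, 75.2% for Pvalb minus Sst, 83.7% for Sst minus Penk and 79.3% for Sst minus Nts. After scaling by trimmed means, Gad1 was 2.22-fold higher in the Sst class than in the Penk class (log2 1.15, SE 0.08, edgeR adjusted p = 9.1e-15) and Gad2 2.16-fold higher (log2 1.11, SE 0.10, edgeR adjusted p = 4.1e-12). Gad1 was 2.44-fold higher in the Sst class than in the Nts class, while Gad2 was 1.67-fold higher. The Vip class had Gad1 at -1.10 and Gad2 at -1.85 on the log2 scale against the Sst class. The Pvalb class had Gad1 at -0.97 and Gad2 at -1.30 against the Sst class. These 8 differences kept their direction and stayed past the threshold under every alternative run, but not their size. With library size scaling the Sst class minus the Penk class was 0.97 for Gad1 and 0.93 for Gad2, the Pvalb class minus the Sst class -0.51 for Gad1 and -0.84 for Gad2, and the Sst class minus the Nts class 0.42 for Gad2. Among cells with fewer than 5 transcripts of each glutamate transporter gene, the Gad1 differences were 0.64 for Sst minus Penk, 0.64 for Sst minus Nts, -0.39 for Vip minus Sst and -0.22 for Pvalb minus Sst. The Gad2 differences in those cells were 0.66 for Sst minus Penk, 0.18 for Sst minus Nts, -1.04 for Vip minus Sst and -0.36 for Pvalb minus Sst. With a marker threshold of 10, Gad1 was -0.63 for Vip minus Sst, and Pvalb minus Sst was -0.51 for Gad1 and -0.72 for Gad2.

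Gad2 was also lower in the Vip class than in the Pvalb class, where 77.6% of genes were called, at a log2 difference of -0.55 (SE 0.10, edgeR adjusted p = 5.7e-06). It was lower in the Vip class than in the Penk class (74.1% of genes called), at -0.74, and than in the Nts class (84.4% called), at -1.10. These 3 Gad2 differences kept their direction and call under every alternative as well. With cells of more than 1 marker included they were -0.34 against the Pvalb class and -0.40 against the Penk class, and Vip minus Penk was -0.37 without transporter cells. Gad1 differences among the Vip, Pvalb, Penk and Nts classes were small, between -0.13 and 0.32 on the log2 scale. Gad1 in the Vip class minus the Pvalb class, -0.13 without a call, passed the threshold at -0.37 with library size scaling (edgeR adjusted p = 7.1e-06), at -0.26 with a marker threshold of 3, at -0.17 without transporter cells, and without anterior replicate 1, anterior replicate 2 or intermediate replicate 1 (-0.24 to -0.18). It turned to 0.096, without a call, with cells of more than 1 marker included. Gad1 in the Vip class minus the Nts class, 0.19 with all sections, lost its call without anterior replicate 2, either intermediate section or posterior replicate 1 or 4, at 0.12 to 0.17. It also lost it with library size scaling, at 0.079, and turned to -0.12 with a marker threshold of 3, so no direction is read from it. Gad1 in the Pvalb class minus the Penk class, 0.19 with all sections, lost its call without either anterior section or posterior replicate 1 or 3, at 0.039 to 0.15, and turned to -0.028 with a marker threshold of 3. Gad1 in the Pvalb class minus the Nts class (81.3% of genes called) was 0.32 and ended only with a marker threshold of 3 transcripts. Gad2 in the Pvalb class minus the Penk class (76.9% of genes called) was -0.18 with an edgeR adjusted p of 0.0762. Alternatives called it in opposite directions, for example at 0.30 without transporter cells (edgeR adjusted p = 8.3e-04) and at -0.48 with a marker threshold of 3 (edgeR adjusted p = 1.1e-04), so no direction is read from it. Gad2 in the Penk class minus the Nts class (76.5% called) was -0.37 with an edgeR adjusted p of 9.4e-04, a call that ended without anterior replicate 1 (-0.16) or posterior replicate 3 (-0.072). Scaling by library size in place of trimmed means moved the median of all genes by -0.33 to 0.46 on the log2 scale, depending on the pair. Since the ratio compares both genes within the same cells, scaling does not enter it.

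Both genes were also counted in cells gated on glial, microglial and endothelial genes, and whether these are transcripts of other cells was not tested. Cells with at least 5 transcripts of Opalin, Aqp4, Cldn5 or Siglech, which mark oligodendrocytes, astrocytes, endothelium and microglia, and with no class marker at 5, still averaged 1.81 to 2.81 Gad1 and 0.920 to 1.59 Gad2 transcripts per cell. Their log2 ratio was 0.74 to 0.99. When the mean of these cells in the same section was subtracted from each class, an alternative chosen after seeing the data, the log2 ratios became 1.75 in the Vip class, 1.16 in the Pvalb class, 0.76 in the Sst class, 0.71 in the Penk class and 0.12 in the Nts class, in the same order. Within the Pvalb class, astrocyte markers summed to 14.3 to 16.3 transcripts per cell over sections, with none of the 5 measured markers at 0, and their part in the ratio was not tested.

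Slc17a7 transcripts went with a high ratio in the Pvalb class, and Slc17a6 transcripts without them did not. Pvalb class cells with at least 5 Slc17a7 transcripts, which mark most cortical excitatory neurons, and fewer than 5 of Slc17a6 had a log2 Gad1 to Gad2 ratio of 1.63 ± 0.10 (SD, n = 7), with 14.4 Gad1 and 4.65 Gad2 transcripts per cell. Pvalb class cells with neither transporter at 5 had a log2 ratio of 0.85 ± 0.12, with 19.7 Gad1 and 11.0 Gad2 transcripts per cell. The lowest section of the Slc17a7 cells, at 1.51, lay above the highest section of the cells with neither, at 1.05. The 3072 Pvalb class cells with both transporters at 5 had a log2 ratio of 2.19 ± 0.16. The 991 cells with Slc17a6 alone had 0.62 ± 0.31.

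The other classes had smaller gaps between cells with Slc17a7 alone and cells with neither. In the Vip class the log2 ratio was 1.59 ± 0.08 with Slc17a7 alone and 1.35 ± 0.17 with neither, and the section ranges overlapped. In the Sst class it was 0.81 ± 0.04 with Slc17a7 alone and 0.70 ± 0.06 with neither. In the Penk class it was 1.06 ± 0.08 with Slc17a7 alone and 0.72 ± 0.10 with neither, without overlap between sections. In the Nts class the 1120 cells with Slc17a6 alone had a log2 ratio of 0.07 ± 0.20, and the 2103 cells with neither had 0.25 ± 0.11. The 166 Nts class cells with Slc17a7 alone had 0.82 ± 0.21, between 0.52 and 1.14, and did not overlap the cells with neither, between 0.0080 and 0.33. The 169 with both transporters had 0.89 ± 0.28. Mixed transcripts of neighbouring cells and co-expression in 1 cell cannot be told apart here.

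Cells with a pair of markers at 5 were few, and those with Pvalb and Sst had the highest levels of both genes among them. The 1343 cells with Pvalb and Sst averaged 48.7 Gad1 and 31.2 Gad2 transcripts per cell, with a log2 ratio of 0.64 ± 0.10, which lies near the Sst class and below the Pvalb class. They made up 36.8% of cells with Sst at 5 and 2.97% of cells with Pvalb at 5. The 909 cells with Vip and Penk had a log2 ratio of 1.61 ± 0.11, near the Vip class. The 418 cells with Vip and Pvalb had 1.73 ± 0.19. The 1610 cells with Penk and Nts had 0.59 ± 0.07, between the means of those classes. With such cells included, the Sst class minus the Penk class turned to -0.07 and stayed without a call (exact permutation p = 0.203).

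Across 26 gates, each made of the cells with at least 5 transcripts of 1 gene, the 2 genes kept nearly the same order of levels. Gad1 was highest at 38.3 ± 3.46 transcripts per cell in the Cort gate, followed by 35.0 ± 2.24 in the Sst gate and 28.2 ± 5.98 in the Th gate. Cort encodes the peptide cortistatin and Th the dopamine-synthesis enzyme tyrosine hydroxylase. These neighbours overlapped in their SDs. Gad2 was highest at 21.6 ± 1.37 transcripts per cell in the Sst gate, then 19.6 ± 1.25 in the Cort gate and 18.7 ± 2.99 in the Th gate, which overlapped too. The 352 cells of the Th gate were the fewest of any gate. Crh, Pvalb and Pdyn gates followed for Gad1, at 20.2 ± 2.15, 17.8 ± 0.769 and 16.3 ± 0.738 transcripts per cell, then Vip at 16.0 ± 1.86, Nts at 14.5 ± 1.04, Chat at 12.9 ± 1.97 and Penk at 12.6 ± 0.421.

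At the low end, the Acta2, Dcn and Igf2 gates of smooth muscle and meningeal cells had 1.42 to 1.57 Gad1 and 0.735 to 0.791 Gad2 transcripts per cell, with overlapping SDs. The Slc17a7 gate had 4.69 ± 0.345 Gad1 and 1.85 ± 0.132 Gad2 transcripts per cell, and the Slc17a6 gate 3.32 ± 0.960 and 1.98 ± 0.779. The log2 ratio was highest in the Vip gate, at 1.49 ± 0.21, followed by the Slc17a7 gate at 1.35 ± 0.05, which lay within the Vip spread. It was lowest in the Nts gate at 0.39 ± 0.14, the Chat gate at 0.43 ± 0.13 and the Calb2 gate at 0.44 ± 0.09, which overlapped. Chat encodes the acetylcholine-synthesis enzyme and Calb2 the calcium buffer calretinin. The gates share cells and libraries, so their order is a description.

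**Figure D3:**
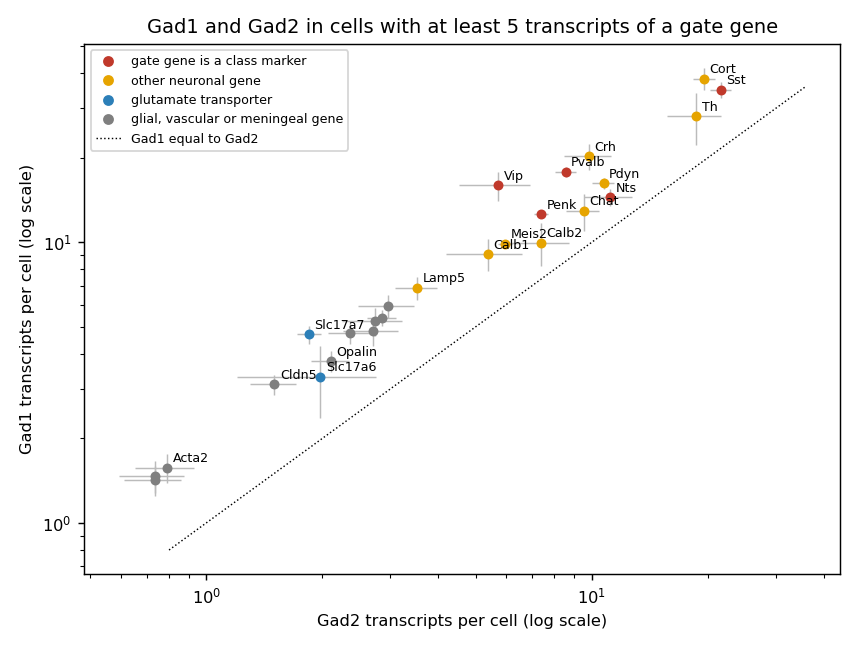
Mean Gad2 (horizontal axis, log scale) against mean Gad1 (vertical axis, log scale) transcripts per cell in 26 gates of cells with at least 5 transcripts of the named gene, with the SD over 7 sections as grey bars and the line of equal counts dotted. The Cort, Sst and Th gates lie highest, the Vip gate lies farthest above the line, and 7 of the grey glial, vascular and meningeal points are left without a name.

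By Pearson correlation of log2 CPM (plus 1) over these 26 gates, the gene most like Gad1 among 296 was Gad2, at r = 0.977, followed by Kctd8 at 0.885, Neto2 at 0.850, Rab3b at 0.849 and Fibcd1 at 0.847. The genes most like Gad2 were Gad1, then Kctd8 at 0.927, Fibcd1 at 0.884, Cacna2d2 at 0.866 and Cdh13 at 0.862. Kctd8 encodes an auxiliary subunit of the GABA-B receptor, Neto2 one of kainate receptors and Cacna2d2 one of voltage-gated calcium channels. Slc17a7 had r = -0.12 with Gad1 and -0.28 with Gad2. The points share libraries and cells, so no p is given.

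Gad1 and Gad2 were found in the same cells, most of all in the Sst class. Each cell was thinned at random to 200 transcripts, so that depth was equal, and cells below that were left out, 439 of the Vip class, 3948 of the Pvalb class, 49 of the Sst class, 2142 of the Penk class and 223 of the Nts class. After thinning, both genes had at least 1 transcript in 93.8% ± 2.25 of Sst class cells (SD, n = 7), 74.6% ± 2.30 of Penk class cells, 68.2% ± 11.6 of Nts class cells, 62.9% ± 2.33 of Pvalb class cells and 56.8% ± 4.41 of Vip class cells. In the glial, microglial and endothelial gates the same share was 21.4% to 30.3%, at a median depth before thinning of 310.0 to 412 transcripts against 463 to 553 in the classes. Without thinning, both were found in 98.4% of Sst class cells, 83.5% of Penk class cells, 78.7% of Nts class cells, 78.3% of Pvalb class cells and 74.9% of Vip class cells, against 26.6% to 36.9% in those gates. Without transporter cells, and thinned, both were found in 94.2% of Sst class cells, 85.6% of Penk class cells, 89.6% of Nts class cells, 87.0% of Pvalb class cells and 79.1% of Vip class cells, so the order of the Penk, Nts and Pvalb classes depends on those cells. With at least 2 transcripts of each gene asked for, the Vip class share was 37.1%. All class shares reported at 1 transcript thus lay above the shares in cells that should lack the genes.

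Cells in which 1 of the 2 genes was detected mostly had Gad1. Which gene is found alone depends also on how well each gene's probes work, so only differences between groups of cells are read. Gad1 without Gad2 was found in 29.9% of thinned Vip class cells, 23.7% of Pvalb class cells, 11.4% of Penk class cells, 10.6% of Nts class cells and 4.46% of Sst class cells. Gad2 without Gad1 was found in 8.27% of Nts class cells and in 0.865% to 4.16% of the other classes. It was 7.76% to 8.50% in the glial, microglial and endothelial gates. Few cells can lack Gad1 where most hold it, so these shares do not show whether cells with Gad2 alone are background. Of thinned cells with Gad2, 94.5% also had Gad1 in the Vip class, 96.0% in the Pvalb class, 99.1% in the Sst class, 94.7% in the Penk class and 88.8% in the Nts class. Of thinned cells with Gad1, 65.4% had Gad2 in the Vip class, 72.6% in the Pvalb class and 95.5% in the Sst class. The share with both exceeded the product of the single shares in 7 of 7 sections of the Vip, Pvalb, Penk and Nts classes and in 4 of 7 of the Sst class. The same held in 7 of 7 sections of each of the Opalin, Aqp4, Cldn5 and Siglech gates, so the excess is not particular to the classes. The share with both was 74.6% against 67.8% in the Penk class and 62.9% against 56.7% in the Pvalb class, and 93.8% against 93.1% in the Sst class.

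**Figure D4:**
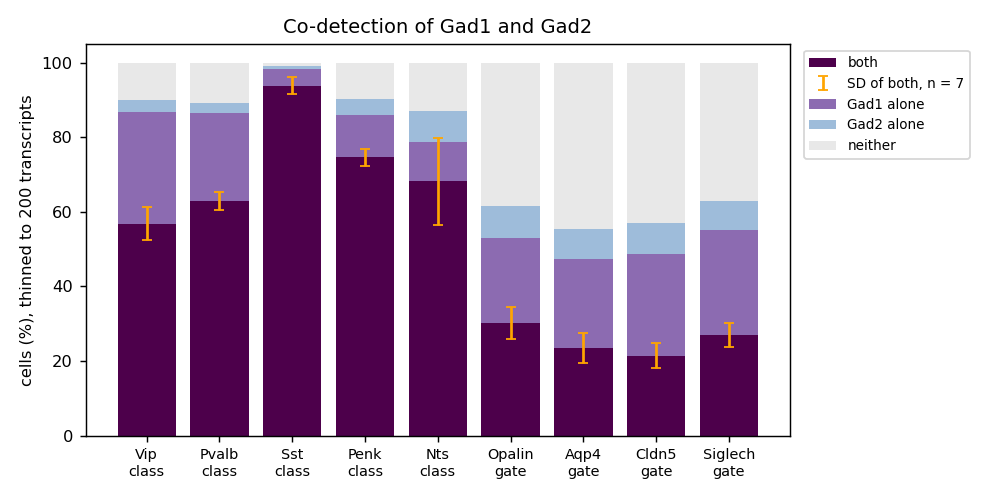
Share of cells in percent (vertical axis), after thinning to 200 transcripts, with both genes, Gad1 alone, Gad2 alone or neither, in 5 marker classes and 4 glial, microglial and endothelial gates (horizontal axis), as the mean of 7 sections, with the SD of the share with both in orange. The share with both is 93.8% in the Sst class and 21.4% to 30.3% in the gates.

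Within a class the counts of the 2 genes went together from cell to cell. Spearman's rho between Gad1 and Gad2 counts averaged 0.75 in the Vip class, 0.81 in the Pvalb class, 0.77 in the Sst class, 0.80 in the Penk class and 0.84 in the Nts class over 7 sections. Per total transcripts of the cell, it averaged 0.67 in the Vip class, 0.80 in the Pvalb class, 0.63 in the Sst class, 0.72 in the Penk class and 0.79 in the Nts class. These are descriptions across cells, which share a section and a spread of depth. The classes also mix cells with many and with few Gad transcripts. At least 5 of the pair were held by 72.3% of Vip, 78.0% of Pvalb, 97.6% of Sst, 78.1% of Penk and 72.3% of Nts class cells. The part of this mixture in rho was not tested.

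Cells of 1 class still differed in their balance of Gad1 and Gad2. Among cells with at least 20 transcripts of the pair, the median share of Gad1 was 74.8% in 819 Vip class cells, 67.6% in 15802 Pvalb class cells, 63.6% in 1500 Sst class cells, 62.8% in 15003 Penk class cells and 54.4% in 1540 Nts class cells. The SD of that share between cells was 13.2 percentage points in the Pvalb class, where counting error alone gives 7.42. It was 11.4 against 7.67 in the Vip class and 10.0 against 7.36 in the Sst class. In the Penk class it was 11.5 against 8.86, and in the Nts class 10.8 against 8.25. Gad2 counts exceeded Gad1 counts in 29.2% ± 8.90 of Nts class cells, against 12.3% in the Penk class, 8.35% in the Pvalb class, 7.33% in the Sst class and 2.81% in the Vip class.

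Other panel genes marked cells with a high or low ratio. The scan used 139699 cells with at least 5 transcripts of Gad1 and Gad2 together, 36.5% of all cells, and compared their log2 ratio between cells with at least 5 and with fewer transcripts of each gene, paired by section, with limma. Of 270 genes tested, 204 passed an adjusted p of 0.05 (75.6%), with a higher ratio for 136 (50.4%) and a lower ratio for 68 (25.2%). Most genes thus moved with the ratio, and the genes below are the 10 of each direction with the largest difference.

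The 10 genes with the largest rise of the ratio included transcription factors of cortical excitatory neurons. A list of glutamatergic markers as a whole lay near the background, with 9 higher, 3 lower and 4 not called of 16 tested, as described below. In cells with Pamr1 the log2 Gad1 to Gad2 ratio was 1.79, against 0.79 in cells without, a difference of 1.0 (SE 0.03, limma adjusted p = 7.7e-09) that ranged from 0.91 to 1.12 over 7 sections. Such cells had 9.07 Gad1 and 2.63 Gad2 transcripts per cell. The differences were 0.81 for Rspo1, a secreted activator of Wnt signalling, and 0.79 for Fezf2, a transcription factor of deep-layer cortical projection neurons. They were 0.78 for Prdm8 and 0.75 for Neurod6, both transcription factors of excitatory cortical neurons. Npnt, an extracellular matrix protein, had 0.76, Pdzrn3, a ubiquitin ligase, 0.75, Myl4, a myosin light chain, 0.73, Vip 0.70 and Igfbp6, a binding protein of insulin-like growth factors, 0.69. All 10 were higher in 7 of 7 sections.

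Between 88.4% and 98.7% of the cells with 9 of these genes, and 76.3% of those with Vip, also had at least 5 Slc17a7 transcripts, against 28.7% of all scanned cells. In cells without either transporter at 5, 3 of the 10 genes had enough cells to be tested. There the difference was 0.82 for Neurod6 (limma adjusted p = 3.4e-05), 0.57 for Vip (limma adjusted p = 7.8e-04) and 0.11 for Pamr1 (limma adjusted p = 0.0282). Pamr1 thus kept a much smaller difference, Vip kept most of its own, and that of Neurod6 was no smaller than the 0.75 in all scanned cells. Within the Penk class alone the Neurod6 difference was 0.21, and within the Pvalb class alone it was 0.88.

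The genes of the low-ratio cells kept the direction and call of their differences without transporter cells. Cells with Cd44, which encodes the hyaluronan receptor, had a log2 ratio of -0.11, against 0.80 in cells without it, a difference of -0.91 (SE 0.06, limma adjusted p = 7.6e-07). They averaged 12.0 Gad1 and 12.9 Gad2 transcripts per cell, so Gad2 counts exceeded Gad1 counts. Cells with Pde11a, a phosphodiesterase of cyclic nucleotides, had 32.0 Gad1 and 27.5 Gad2 transcripts per cell and a difference of -0.60. Cells with Serpinf1, which encodes the secreted factor PEDF, had 39.3 Gad1 and 30.7 Gad2 transcripts per cell and a difference of -0.46. The remaining differences were -0.50 for Zcchc12, -0.49 for Pln, which encodes the calcium pump regulator phospholamban, -0.46 for Tmem255a, -0.45 for Vat1l, -0.43 for Nts, -0.43 for the nuclear receptor gene Nr2f2 and -0.42 for Calb2. All 10 were lower in 7 of 7 sections, and in cells without transporters their differences lay between -0.81 for Cd44 and -0.28 for Nts. Some were smaller there, at -0.29 for Vat1l and -0.30 for Tmem255a.

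**Figure D5:**
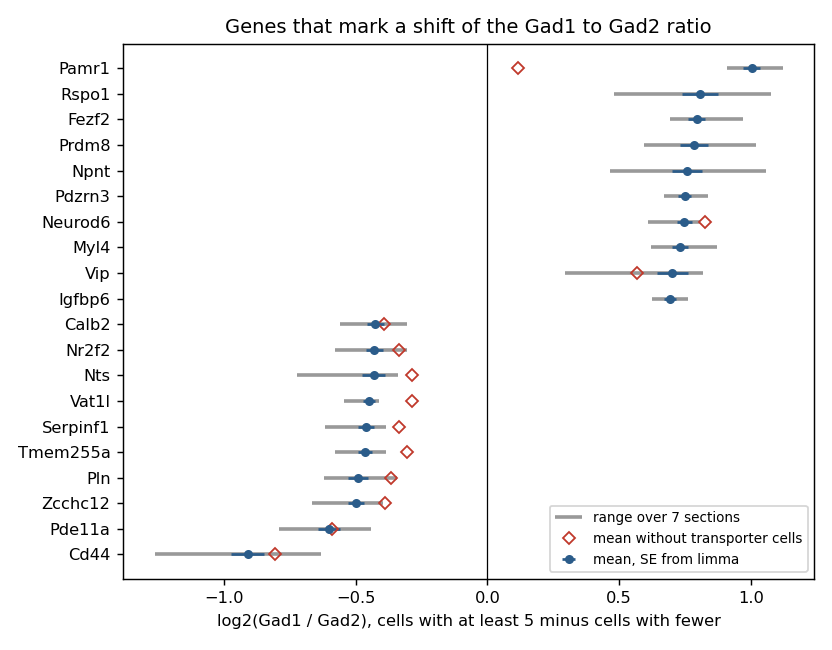
Difference in the log2 Gad1 to Gad2 ratio (horizontal axis) between cells with at least 5 and cells with fewer transcripts of each of 20 genes (vertical axis), among cells with at least 5 Gad1 and Gad2 transcripts together. Blue points are means with limma's SE, grey lines the range over 7 sections and red diamonds the mean in cells without glutamate transporters, where it could be had; Pamr1 lies at 1.0 in all cells and at 0.11 in those.

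Genes listed as markers of GABAergic neurons went with the ratio in both directions. Of 28 such genes, 13 had a higher and 10 a lower ratio and 5 did not pass, with a median difference of 0.03 against 0.09 over all genes tested. That is 46.4% higher and 35.7% lower, beside 50.4% and 25.2% over all genes. Of 17 genes listed as markers of glutamatergic neurons, 16 were tested, 9 had a higher and 3 a lower ratio and 4 did not pass, with a median of 0.14. Those shares, 56.3% and 18.8%, lie near the background. Within the Pvalb class alone, a scan added after seeing the data, 200 of 223 genes passed (89.7%), and Pamr1 again led with 1.24. There 14 of 15 glutamatergic markers had a higher ratio and none a lower one, with a median of 0.55 against 0.25 over all genes, of which 153 were higher (68.6%) and 47 lower (21.1%). Of 16 GABAergic markers tested there, 11 had a higher and 3 a lower ratio, with a median of 0.18. Within the Penk class 89 of 183 genes passed (48.6%), and the largest difference was 0.52 for Rasl10a, which encodes a small GTPase of the Ras family. There 20 genes were higher (10.9%) and 69 lower (37.7%), with a median of -0.06. Of 14 GABAergic markers tested in the Penk class, 1 had a higher and 9 a lower ratio, with a median of -0.15. Of 13 glutamatergic markers, 4 had a higher and 1 a lower ratio and 8 did not pass, with a median of -0.02.

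Along the anterior to posterior axis, neither gene differed past the threshold in whole sections in the fit without a replicate block. Gad1 had 16.3 and 15.9 transcripts per 1000 in anterior sections (replicates 1 and 2), 16.1 and 15.8 in intermediate sections (replicates 1 and 2) and 14.5, 17.4 and 14.2 in posterior sections (replicates 1, 3 and 4). Gad2 had 8.82 and 9.21 per 1000 in anterior sections, 8.74 and 8.76 in intermediate sections and 7.93, 10.3 and 8.16 in posterior sections. Posterior replicate 3 lay above and the other posterior sections lay below all anterior sections for both genes. In a whole section, fewer cells of a type and less RNA per cell cannot be told apart. The edgeR difference of posterior minus anterior sections was -0.09 for Gad1 (adjusted p = 0.749) and -0.06 for Gad2 (adjusted p = 0.921), with 0% of 297 genes called by edgeR, 33 genes at an unadjusted p under 0.05 and 12 called by DESeq2. With the replicate number as a block, a fit with 1 residual degree of freedom, posterior and anterior sections meet in replicate 1 alone. The difference there was -0.18 for Gad1 and -0.18 for Gad2, and only its size is given, since it rests on 1 posterior section.

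For intermediate minus anterior sections the edgeR difference was -0.02 for Gad1 and -0.05 for Gad2, each with an adjusted p of 0.9997. No gene was called (0%), 0 genes had an unadjusted p under 0.05, and DESeq2 called 0. The log2 Gad1 to Gad2 ratio of whole sections was 0.89 and 0.79 in anterior, 0.88 and 0.85 in intermediate and 0.87, 0.76 and 0.80 in posterior sections.

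Within the classes, posterior and anterior sections did not overlap in the ratio in 3 of 5, where chance alone separates them in a class with probability 0.2. In the Sst class the log2 ratio was 0.79, 0.78 and 0.77 in posterior sections (replicates 1, 3 and 4), against 0.71 and 0.71 in anterior sections (replicates 1 and 2), a difference of 0.07. In the Penk class it was 0.63, 0.70 and 0.62 in posterior sections, against 0.78 and 0.83 in anterior sections, a difference of -0.16. In the Nts class it was 0.29, -0.018 and 0.25 in posterior sections, against 0.29 and 0.33 in anterior sections, a difference of -0.13. Posterior sections were thus higher in the Sst class and lower in the Penk and Nts classes, and posterior replicate 1 of the Nts class fell short of the lower anterior section by less than the rounding shown.

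With 3 posterior and 2 anterior sections, the exact permutation test gave p = 0.2 for each of these 3 classes, the smallest it can give, and 0.4 after adjustment. The ranges overlapped in the Vip class (difference -0.03) and the Pvalb class (0.02). On the first slide alone, posterior replicate 1 against both anterior sections, the Sst and Penk differences kept these directions. The Nts difference did so narrowly, at 0.286 against 0.288 and 0.327. Among Nts class cells the difference shrank to -0.04 without posterior replicate 3. That section had 1322 Nts class cells, against 289 to 495 in the other 6, and 87.1% of them had at least 5 Gad transcripts, against 62.3% to 80.6% elsewhere.

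In edgeR's fit without a replicate block, neither gene passed the threshold by position within a class. Gad1 in the Penk class was 22.8, 23.9 and 22.2 transcripts per 1000 in posterior sections, against 24.2 and 25.6 in anterior sections. The edgeR difference of posterior minus anterior was -0.22 (SE 0.06, edgeR adjusted p = 0.0818), where 6 genes or 2.02% were called. DESeq2, which called 54 of the 297 genes there, placed it past the threshold, at -0.23 (DESeq2 adjusted p = 9.2e-04). Gad2 in the Penk class differed by -0.06 (edgeR adjusted p = 0.604).

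In the Sst class Gad1 was 47.7, 49.1 and 49.2 transcripts per 1000 in posterior sections, against 45.9 and 44.1 in anterior sections. The difference was 0.15 (edgeR adjusted p = 0.394). In the Sst class edgeR called 0% of genes, with 25 genes at an unadjusted p under 0.05 and 0 called by DESeq2. In the Nts class Gad1 was 18.3, 28.2 and 21.5 transcripts per 1000 in posterior sections, against 30.7 and 24.9 in anterior sections, which overlapped. The Nts difference was -0.28 for Gad1 and -0.11 for Gad2 (edgeR adjusted p = 0.992 for each), with 0% of genes called, 3 genes at an unadjusted p under 0.05 and 0 called by DESeq2. With the replicate number as a block, which again rests on replicate 1, the Nts differences became -0.78 for Gad1 and -0.76 for Gad2. These are sizes only, since 1 posterior section gives no spread.

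In the Vip class the differences were -0.14 for Gad1 and -0.10 for Gad2 (edgeR adjusted p of 0.658 and 0.823), with 0% of genes called, 20 at an unadjusted p under 0.05 and 2 called by DESeq2. In the Pvalb class they were -0.06 for Gad1 and -0.08 for Gad2 (edgeR adjusted p of 0.824 and 0.839), with 0% of genes called, 31 at an unadjusted p under 0.05 and 8 called by DESeq2. Neither gene passed a test of whether its position difference differed between any pair of classes, the lowest unadjusted p being 0.0319 for Gad1 in the Sst class against the Nts class (edgeR adjusted p = 0.672), where 0% of genes were called. For the Sst class against the Penk class, where 1.02% of genes were called, the Gad1 difference was 0.41 (edgeR adjusted p = 0.454).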

How the data were processed

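The authors deposited raw transcript counts, whole numbers for each gene in each segmented cell, and summing them gave the deposited total in 100% of cells. The submitters' processing notes name Seurat without a version. How cells were segmented, how transcripts were decoded and which cells were filtered were details not given in the sources used here. An SCT score, a normalised total per the file headers, stands in the authors' cell table and was left aside. Sections were taken from the cell table, which matches the labels by number and position. Gene symbols matched RefSeq for 296 of 297 genes, Gad1 and Gad2 included, and the files name no genome build.

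Cells with at least 10 transcripts (382707) were used and no cells were clustered or removed as doublets. Sums per class and section were tested with edgeR 4.0.16 (trimmed mean scaling, low-count filter, quasi-likelihood), with DESeq2 1.42.0 as an alternative, and ratios in the scan with limma 3.58.1, for genes with at least 20 cells on each side in every section. Calls had a Benjamini-Hochberg adjusted p of at most 0.05. Both fits were tested on simulated data. Members and gene lists were chosen with earlier results of these data known, and names in the scan followed a rule of the 10 largest differences per direction with 1 sign in 7 sections, and for likeness the 5 highest correlations. Leading genes of the scans within the Pvalb and Penk classes were named after their values were seen.

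Sections with the same replicate number deviated together from the means of their positions: over 297 genes, 4 of 4 such pairs had a correlation over 0.1, from 0.37 to 0.84. The labels state no shared animal or batch, so the pairing comes from these data alone, and with 2 sections at a position their deviations mirror each other.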

Additional observations from a re-analysis of the deposited data

Results flagged for a closer look

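In the Nts class, posterior replicate 3 stood apart from the other 6 sections. Its log2 Gad1 to Gad2 ratio was -0.018, against 0.25 to 0.33 in the others, and it held 1322 cells, against 289 to 495. Both gaps, divided by the range of the 7 sections, exceeded Dixon's 95% critical value of 0.568, at 0.775 for the ratio and 0.801 for the cells. Such gaps were looked for in 20 sets of 7 sections, and chance marks about 1 in 20.

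The difference in the log2 ratio between posterior and anterior sections had opposite signs in different classes. The posterior minus anterior difference of the Sst class exceeded that of the Penk class by 0.23 and that of the Nts class by 0.21. Every posterior section of the Sst class lay above, and every posterior section of the Penk and Nts classes below, the anterior sections, and the difference between classes was not tested. The Nts ranges nearly met, with 0.286 as the highest posterior and 0.288 as the lowest anterior value.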

How the results depend on the processing

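Of 1207 recomputed values, 1072 kept their direction and their side of the threshold or stayed close. The 9 called ratio differences between classes kept their direction under every alternative and stayed called, except Pvalb minus Penk without transporter cells, at 0.13. Sst minus Penk turned to -0.073 with second-marker cells and to -0.023 without transporter cells. For the ratio by position, the Pvalb difference turned to -0.0033 without transporter cells, and leaving out 1 section gave -0.11 to 0.038 in the Vip class, -0.089 to 0.088 in the Pvalb class and -0.079 to 0.018 in whole sections. The cause was not tested for any change listed here.

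Co-detection over all classes, 68.9% as reported, was 58.5% with a marker threshold of 3 and 81.1% with 10, 86.4% without transporter cells, 54.2% thinned to 100, 80.9% without thinning and 53.1% with at least 2 transcripts of each gene. The Vip class share, 56.8% as reported, was 42.6% with a marker threshold of 3 and 77.5% with 10. With a threshold of 10 the Nts class had the lowest share, at 71.6%.

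Gad1 for Vip minus Pvalb was -0.26 with threshold 3, 0.096 with second-marker cells, -0.17 without transporter cells and -0.37 with library size scaling, and -0.24 to -0.12 leaving out 1 section. Gad1 for Vip minus Penk was -0.29 with threshold 3, 0.20 with 10, 0.32 with second-marker cells, 0.25 without transporter cells and -0.082 with no filter. Leaving out 1 section gave -0.11 to 0.071. Alternatives called it in opposite directions, with threshold 3 (edgeR adjusted p = 0.0028) and with second-marker cells (edgeR adjusted p = 2.1e-07). No direction is read from it. Gad1 for Vip minus Nts was -0.12 with threshold 3 and 0.079 with library size scaling, and 0.12 to 0.28 leaving out 1 section. For Pvalb minus Penk, Gad1 was -0.028 with threshold 3, 0.071 with no filter and 0.16 with DESeq2, and 0.039 to 0.20 leaving out 1 section. Its Gad2 was -0.48 with threshold 3, 0.081 with 10, 0.30 without transporter cells, 0.096 with library size scaling, -0.30 with no filter and -0.21 with DESeq2, and -0.31 to -0.17 leaving out 1 section. For Pvalb minus Nts, Gad1 was 0.14 with threshold 3 and Gad2 -0.070 with 10. For Penk minus Nts, Gad1 was 0.43 with threshold 10, -0.10 with second-marker cells, -0.0056 without transporter cells, -0.014 with library size scaling and 0.30 with no filter. Leaving out 1 section gave 0.098 to 0.39. Alternatives called this Gad1 difference in opposite directions, with threshold 10 (edgeR adjusted p = 2.4e-06) and with second-marker cells (edgeR adjusted p = 0.0443). No direction is read from it either. Gad2 for Penk minus Nts was -0.15 with threshold 10 and -0.40 to -0.072 leaving out 1 section.

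With the replicate block, posterior minus anterior called 53 genes in whole sections (Gad1 -0.18, Gad2 -0.18), 26 in the Pvalb class (Gad2 0.044), 61 in the Penk class and 25 in the Nts class (Gad1 -0.78, Gad2 -0.76), and intermediate minus anterior called 2. The block changed no other call of Gad1 or Gad2. DESeq2 called 12 genes in whole sections, 2 in the Vip class, 8 in the Pvalb class and 54 in the Penk class (Gad1 -0.23). Library size scaling called 1 in the Pvalb class and 22 in the Penk class (Gad2 0.042). The slide as a term gave 0.018 for Gad1 and 0.090 for Gad2 in the Pvalb class and called 0 genes in the Penk class. Leaving out 1 section, the genes called were 0 to 2 in whole sections, 0 to 1 in the Vip class, 0 to 27 in the Pvalb class (27 without posterior replicate 3) and 0 to 9 in the Penk class (0 without anterior replicate 2, posterior replicate 3 or posterior replicate 4). Gad2 differences by position then ran from -0.19 to 0.012 in whole sections, -0.16 to 0.018 in the Vip class, -0.17 to 0.016 in the Pvalb class and -0.47 to 0.083 in the Nts class, and from -0.098 to 0.0025 for intermediate minus anterior. The scan called 89 genes within the Penk class, where 183 were tested. There Pdzrn3 was 0.35, Neurod6 0.21, Zcchc12 -0.32, Tmem255a -0.26, Vat1l -0.086, Nr2f2 -0.21 and Calb2 -0.23. Igfbp6 lost its call there, at 0.065 (limma adjusted p = 0.368). Within the Pvalb class Serpinf1 was -0.79, Vat1l -0.73 and Nr2f2 -0.89. With the scan's gene threshold at 3 transcripts, Rspo1 was 0.42 and Cd44 -0.52, and at 10 transcripts Rspo1 was 1.39. Few Sst, Vip and Nts class cells per section limit those classes, and with 2 or 3 sections a position, small shifts by position were not detectable.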

Other observations

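The counts of both genes varied more from cell to cell than counting alone gives, to a different degree by class. The variance of Gad1 counts over their mean averaged 20.1 in the Pvalb class, 14.5 in the Vip class, 14.1 in the Nts class, 9.74 in the Sst class and 9.23 in the Penk class over 7 sections. For Gad2 it averaged 15.4 in the Pvalb class, 12.0 in the Nts class, 9.88 in the Vip class, 7.15 in the Sst class and 7.07 in the Penk class. Sst class cells were nearly uniform in having the pair, with Gad1 at 0 in 0.481% and Gad2 at 0 in 1.45% of cells, while 23.6% of Vip class cells and 20.4% of Pvalb class cells had Gad2 at 0. These values were not thinned to 1 depth.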
